A study of Homo sapiens with 9 samples.

Results

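The genes described are 41 genes of glycolysis and of the transcriptional response to low oxygen, chosen by symbol from the 60199 rows of a table of RNA sequencing counts. They fall into 4 groups by role: 16 glycolytic enzymes, 7 transporters and switches of glucose use, 16 other targets of the hypoxia-inducible factors (HIF), and the 2 HIF alpha subunits HIF1A and EPAS1. Of all rows, 29997 had at least 1 count in any library and 15717 had enough counts to be tested, among them all 41 of these genes.

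The libraries came from 3 lines of MCF10A, an immortalised, non-malignant human mammary epithelial line, with 3 cultures of each. CT was the parental MCF10A, grown without added BMP2 or IL6 and labelled not transformed. MC26 arose from unsorted MCF10A cells kept for a long time with the ligand BMP2 and the cytokine IL6, and M1B26 from MCF10A cells first sorted for the BMP receptor BMPR1B and then kept with both factors; both are labelled transformed. M1B26 was expanded from 3 colonies picked in soft agar, and whether each of its libraries holds 1 of them is not given. By the growth protocol in the labels the medium of both lines held BMP2 and IL6, so a direct response to them and a lasting change of the cells cannot be told apart. Oxygen was not among the conditions that the labels name. Library preparation batches are not given either, so a batch that followed the lines cannot be told apart from them.

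Glycolysis splits glucose into pyruvate in the cytosol, and pyruvate is either passed to the mitochondria or reduced to lactate and exported. The HIF alpha subunits are made all the time and, with oxygen present, are hydroxylated by the EGLN prolyl hydroxylases and destroyed; when oxygen is low they persist, pair with ARNT and bind DNA at a short motif. Among their known targets are most glycolytic enzymes and a second class of genes for acid balance, blood vessel growth, mitophagy and collagen hydroxylation, so both classes often move together in hypoxic tumours.

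Total counts per library ran from 21425118 to 80076597, with the lowest in CT replicate 2, and the 3 counts taken as the limit of detection stood for 0.0366 to 0.131 CPM (counts scaled to library size, with TMM factors). The basal epithelial markers KRT5, KRT6A, KRT17 and TP63 were measured in every line, with KRT14 at a mean of 54.1 CPM for CT, 1100 for MC26 and 548 for M1B26, while KRT19 stood at 0.0771 to 0.214 CPM. Among 18 markers of fibroblasts, leukocytes and endothelial cells, COL1A2, COL3A1, PTPRC, CD3E, LYZ, CDH5 and VWF were each at a mean under 0.1 CPM in every line. CD14 (9.08, 13.2 and 38.5 CPM in CT, MC26 and M1B26), CD68 (8.96, 22.5 and 26.7) and the fibroblast gene LUM (0.108, 0.128 and 5.11) did have counts. Of the 18 markers 9 had enough counts to be tested, 4 of fibroblasts, 2 of leukocytes and 3 of endothelial cells. Those just named are therefore not all that had counts. The 3 endothelial ones had log2 fold changes of -4.21 to 1.64 in MC26 and of -2.45 to 1.20 in M1B26 against CT. The 7 fibroblast markers summed to 37.5 to 37.8 CPM over the CT libraries, 17.1 to 56.8 over those of MC26 and 28.6 to 39.9 over those of M1B26, the 6 leukocyte markers to 14.8 to 19.9, 34.4 to 36.7 and 56.8 to 78.9, and the 5 endothelial markers to 8.15 to 8.26, 2.19 to 3.76 and 3.66 to 6.6. Of 9 basal epithelial markers 7 were higher in MC26 by edgeR (median log2 fold change 0.99), and 4 higher and 1 lower in M1B26 (0.58). That is 77.8% and 44.4% higher, beside 18.8% and 25.2% of all genes tested. Of 6 luminal and general epithelial markers 5 had enough counts to be tested. Of these 4 were lower in MC26 by edgeR (-0.88), and 2 lower in M1B26 (0.03). That is 80% and 40% lower, beside 19.9% and 23.7% of all genes tested. The part of these markers in the results below was not tested. In bulk RNA, fewer cells with a transcript and less of it per cell cannot be told apart.

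Of the 16 glycolytic enzymes 9 passed no test in any comparison, while PFKFB3, EPAS1, CA12, ADM and EGLN3 rose in both transformed lines, and ENO2 and BNIP3 fell in MC26 and rose in M1B26. A gene was called changed at an adjusted p under 0.05 by edgeR, which tested all 15717 genes. The share of all genes called in no comparison was not computed, so the 9 enzymes have no background. Of the enzymes 25% were called in MC26 against CT, beside 38.7% of all genes tested. The shares were 37.5% beside 48.9% in M1B26 against CT, and 37.5% beside 39.5% in M1B26 against MC26. All enzymes but ENO2 had a mean of at least 50 CPM. Of all tested genes at that level 38.6%, 55.4% and 45.1% were called in the 3 comparisons, in the same order. In MC26 against CT, 20 of the 41 genes were called, 15 higher and 5 lower, that is 48.8% against 38.7% of all genes tested (18.8% higher and 19.9% lower). In M1B26 against CT, 19 were called, 16 higher and 3 lower, or 46.3% against a background of 48.9% (25.2% higher and 23.7% lower). In M1B26 against MC26, 21 were called, 10 higher and 11 lower in M1B26, or 51.2% against 39.5% (21.2% higher and 18.4% lower). In M1B26 against CT the share of called genes was thus no larger than over all genes. With total counts as the only scaling, the MC26 calls became 12 higher and 7 lower, so 63.2% of them were higher against 75% with TMM, and over all genes that share was 35.8% against 48.5%.

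In MC26 against CT, 4 of 16 enzymes were called, 2 higher and 2 lower, with a median log2 fold change of 0.08, or 0.00 with total counts as the only scaling. Of the 16 other HIF targets 10 were called, 7 higher and 3 lower, with a median of 0.25, or 0.17 under that scaling. With TMM 62.5% of these targets were thus called, beside 38.7% of all genes tested. Over all genes tested the median was 0.00, and over those with a mean of at least 50 CPM it was 0.06, near that of the enzymes. In M1B26 against CT, 6 enzymes were called (5 higher, 1 lower) and 7 of the other targets (6 higher, 1 lower), and the medians were 0.07 and 0.08, which turned to -0.02 and -0.01 with total counts as the only scaling. With TMM the called share of the other targets was 43.8%, no larger than the 48.9% of all genes. Among the 7 transporters and switches 4 were higher in MC26, with a median of 0.34, and in M1B26 3 were higher and 1 lower, with a median of 0.10, or 0.01 with total counts as the only scaling. With TMM the called share was 57.1% in each line, beside 38.7% of all genes in MC26 and 48.9% in M1B26. Between the transformed lines 6 enzymes and 10 other targets were called, in both directions, with medians of 0.00 and -0.11. The called share of the other targets was 62.5% there, beside 39.5% of all genes. The lists were chosen by hand, and the difference between them was not tested.

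**Figure D1:**
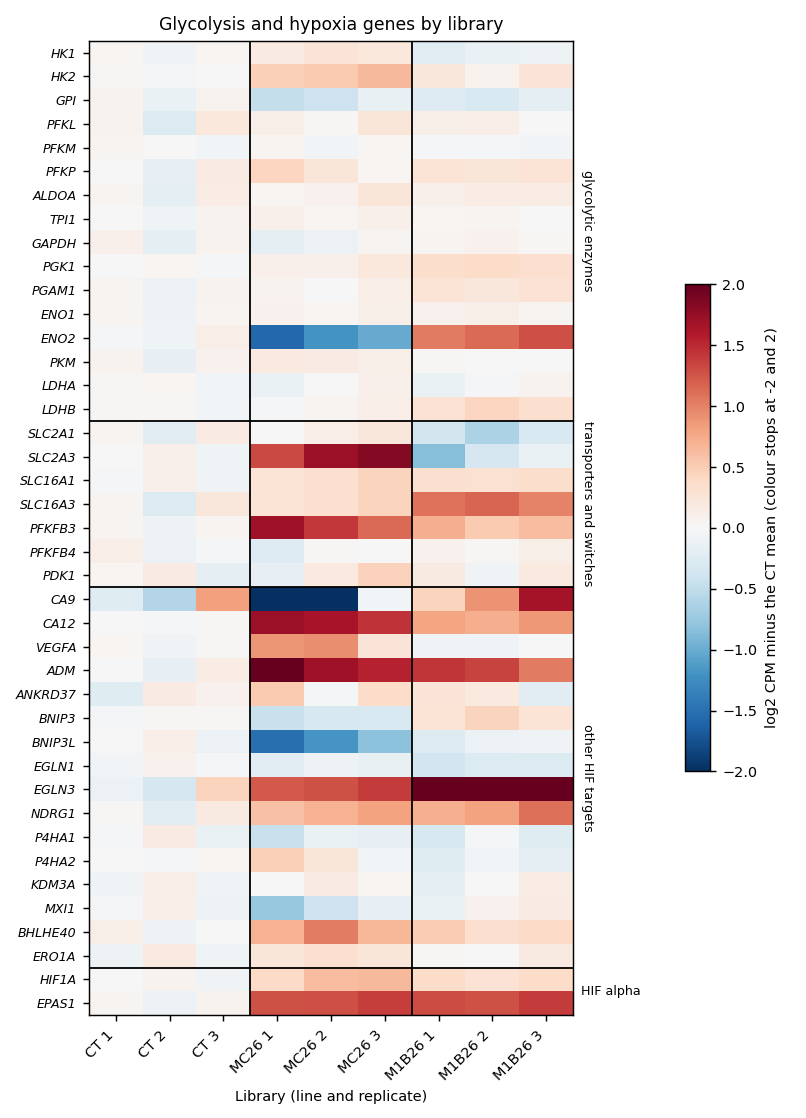
Log2 CPM of each of the 41 genes (rows, grouped by role) in each of the 9 libraries (columns, by line and replicate), less the mean of the 3 CT libraries; red is higher, blue lower, and the colour stops at -2 and 2. Most of the enzyme rows are pale in all columns, whereas EPAS1 is red in all 6 libraries of the transformed lines and ENO2 is blue in MC26 and red in M1B26.

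The sum of the enzymes differed between the lines by less than its SD in CT. Together they made up 2.17 ± 0.094% of all counts in CT, 2.12 ± 0.103% for MC26 and 2.13 ± 0.0246% for M1B26 (n = 3, SD). The other HIF targets summed to 0.0738 ± 0.00236% in CT, 0.0981 ± 0.00578% for MC26 and 0.0826 ± 0.00467% in M1B26. The transporters and switches summed to 0.104 ± 0.00847%, 0.130 ± 0.00633% and 0.170 ± 0.00407%, a sum to which SLC16A3 contributed most. On the scale of CPM per kilobase of transcript, GAPDH (4120 in CT), ENO1 (2150), PKM (1390) and LDHA (1060) stood highest and ENO2 lowest (1.1) among the enzymes.

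Of the 4 enzymes called in MC26 against CT, 3 act in the first steps of glycolysis (HK1, HK2 and GPI), and the one with the largest change was the enolase ENO2. HK2, the hexokinase isoform induced in many tumours, was at 78.5, 75.8 and 77.9 CPM in CT, at 108, 111 and 121 in MC26 and at 90.1, 81.5 and 93.0 in M1B26. All libraries of both lines lay above those of CT, and MC26 lay above M1B26. HK2 rose by a log2 fold change of 0.55 in MC26 (standard error 0.07, edgeR-adjusted p 0.000145) and by 0.19 in M1B26 (standard error 0.07, edgeR-adjusted p 0.0437), the latter a small change that did not hold without single libraries. HK1, the hexokinase of most tissues, was at 400, 372 and 399 CPM in the CT libraries, 437, 467 and 450 in MC26 and 333, 357 and 365 in M1B26. It rose by 0.21 in MC26 (standard error 0.06, edgeR-adjusted p 0.0237) and stood at -0.15 in M1B26 against CT (standard error 0.06, edgeR-adjusted p 0.0709), with M1B26 under MC26 by a log2 fold change of -0.36 (standard error 0.06, edgeR-adjusted p 0.00138). GPI, which turns glucose 6-phosphate into fructose 6-phosphate, was the enzyme that fell in both lines, by 0.35 in MC26 (standard error 0.09, edgeR-adjusted p 0.0129) and by 0.25 in M1B26 (standard error 0.09, edgeR-adjusted p 0.042). Its libraries held 644, 558 and 647 CPM in the CT libraries, 440, 462 and 552 in MC26 and 512, 498 and 542 in M1B26, so the lowest CT library came close to the highest of the others.

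Of the enzymes that follow, PFKL, PFKM, PFKP, ALDOA, TPI1, GAPDH, ENO1 and PKM were called in no comparison. The phosphofructokinases PFKL, PFKM and PFKP, which catalyse the committed step, had log2 fold changes of 0.11, 0.02 and 0.24 in MC26 and of 0.06, -0.03 and 0.25 in M1B26. PFKP came nearest, with a 95% interval of 0.01 to 0.47 in MC26 (adjusted p 0.0896 by edgeR) and of 0.02 to 0.48 in M1B26 (adjusted p 0.0636). The aldolase ALDOA and the isomerase TPI1 stood at 0.12 and 0.08 in MC26 and at 0.13 and 0.03 in M1B26. For GAPDH, the dehydrogenase often used as a reference gene, the 95% interval ran from -0.28 to 0.10 in MC26 and from -0.14 to 0.24 in M1B26. For ENO1, the common enolase, it ran from -0.05 to 0.22 in both lines. PKM, whose product makes pyruvate, had an interval of 0.00 to 0.31 in MC26 and of -0.16 to 0.16 in M1B26.

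PGK1 and PGAM1, which act between GAPDH and the enolases, rose by small amounts in M1B26. PGK1, which makes the first ATP of the pathway, was at 695, 711 and 678 CPM in the CT libraries, 747, 749 and 806 in MC26 and 882, 893 and 876 in M1B26. The 3 lines did not overlap, and PGK1 rose in M1B26 by a log2 fold change of 0.35 (standard error 0.06, edgeR-adjusted p 0.00062), while its 0.14 in MC26 missed the threshold (adjusted p 0.0722). PGAM1, the mutase of the next step, rose in M1B26 by 0.26 (standard error 0.07, edgeR-adjusted p 0.00926) and stood at 0.07 in MC26 (adjusted p 0.438).

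The isoforms at the end of the pathway differed. LDHA, the lactate dehydrogenase subunit that is a classic HIF target, was at 2410, 2440 and 2300 CPM in the CT libraries, 2170, 2380 and 2550 in MC26 and 2170, 2330 and 2500 in M1B26. The libraries overlapped fully, with 95% intervals of -0.18 to 0.16 in MC26 and -0.20 to 0.14 in M1B26. Pseudogene rows of LDHA held 0.934 to 1.41% as many counts as the gene. LDHB, the subunit whose tetramer favours the use of lactate, was at 924, 925 and 868 CPM in the CT libraries, 883, 944 and 992 in MC26 and 1110, 1220 and 1130 in M1B26. All M1B26 libraries lay above the rest, and LDHB rose there by a log2 fold change of 0.35 against CT (standard error 0.07, edgeR-adjusted p 0.00163) and by 0.29 against MC26 (standard error 0.07, edgeR-adjusted p 0.00606). LDHB then made up 46.0 ± 1.98% of both subunits per kilobase in M1B26, against 39.5 ± 0.177% in CT and 40.6 ± 0.573% in MC26 (SD, n = 3).

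ENO2, the enolase of neurons and a HIF target, was the enzyme with the largest changes and moved in opposite directions in the 2 lines. It was at 2.44, 2.36 and 2.75 CPM in the CT libraries, 0.845, 1.1 and 1.25 in MC26 and 5.16, 5.51 and 6.15 in M1B26. No line overlapped another. ENO2 fell by 1.25 on the log2 scale in MC26 (standard error 0.17, edgeR-adjusted p 0.000239) and rose by 1.15 in M1B26 (standard error 0.15, edgeR-adjusted p 0.000125), so that M1B26 stood 5.26-fold over MC26 (adjusted p 3.88e-06 by edgeR). Its level was low beside ENO1: it made up 0.051% of both enolases per kilobase in CT, 0.0204% for MC26 and 0.107% in M1B26.

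**Figure D2:**
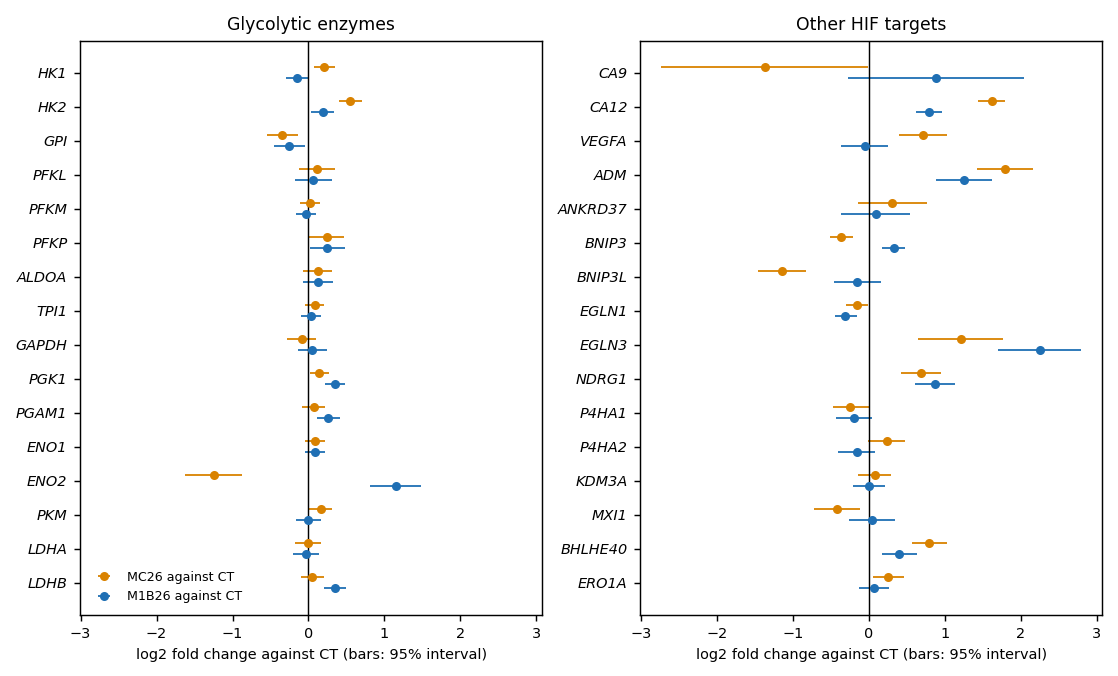
Log2 fold change against CT (horizontal axis, points) with its 95% interval (bars) of the 16 glycolytic enzymes (left) and the 16 other HIF targets (right), for MC26 in orange and M1B26 in blue. Apart from ENO2 (-1.25 and 1.15) the enzymes lie between -0.35 and 0.55. The other targets spread from -1.37 (CA9 in MC26, not called) to 2.25 (EGLN3 in M1B26). ENO2, CA9 and EGLN3 all have low CPM.

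Of the glucose transporters, SLC2A3 rose in MC26 and SLC2A1 fell in M1B26. SLC2A1 (GLUT1), the glucose importer of many tissues, was at 81.0, 67.2 and 86.8 CPM in the CT libraries, 78.4, 85.5 and 90.7 in MC26 and 60.5, 50.4 and 63.2 in M1B26. The M1B26 libraries lay below all others, and SLC2A1 fell there by 0.44 on the log2 scale (standard error 0.11, edgeR-adjusted p 0.00691), against 0.11 in MC26 (adjusted p 0.447). SLC2A3 (GLUT3), a transporter of high affinity, was at 1.69, 1.83 and 1.60 CPM in the CT libraries, 4.25, 5.62 and 6.07 in MC26 and 0.947, 1.35 and 1.55 in M1B26. The MC26 libraries were the high ones, 3.14-fold over CT (log2 fold change 1.65, standard error 0.20, edgeR-adjusted p 9.49e-05), and M1B26 lay under MC26 by a log2 fold change of -2.04 (standard error 0.20, edgeR-adjusted p 3.61e-05). SLC2A3 made up 1.92 ± 0.390% of both transporters per kilobase in CT, 5.22 ± 0.560% for MC26 and 1.93 ± 0.501% for M1B26 (n = 3, SD). A near-identical gene, SLC2A14, exists, and how reads that fit both were counted is not given, so the values of SLC2A3 are uncertain.

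Both lactate transporters rose in both lines, SLC16A3 in MC26 by a change that did not hold without single libraries. SLC16A3 (MCT4), the exporter of cells with high glycolysis, was at 643, 510 and 719 CPM in the CT libraries, 747, 781 and 841 in MC26 and 1310, 1380 and 1230 in M1B26. Every M1B26 library exceeded every other one, and the log2 fold change was 1.07 in M1B26 (standard error 0.11, edgeR-adjusted p 2.32e-05), 0.34 in MC26 (standard error 0.11, edgeR-adjusted p 0.0296) and 0.73 between the lines (standard error 0.11, edgeR-adjusted p 0.000537). SLC16A3 is the member that lies on chromosome 17, where the median log2 fold change of 843 tested genes was 0.48 in M1B26 against CT and 0.00 in MC26 against CT. The part of the chromosome-wide shift in its M1B26 value was not tested. SLC16A1 (MCT1) was at 210, 230 and 205 CPM in the CT libraries, 260, 272 and 292 in MC26 and 268, 266 and 274 in M1B26. It rose by 0.35 in MC26 (standard error 0.07, edgeR-adjusted p 0.00207) and by 0.32 in M1B26 (standard error 0.07, edgeR-adjusted p 0.00249), with no call between the lines (-0.03, 95% interval -0.18 to 0.12).

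Of the switches, PFKFB3 moved most. PFKFB3, a bifunctional enzyme that makes the allosteric activator of phosphofructokinase, was at 46.4, 41.7 and 46.6 CPM in the CT libraries, 146, 120 and 98.2 in MC26 and 74.6, 64.7 and 68.8 in M1B26. The 3 lines did not overlap, in the order CT, M1B26, MC26. It was 2.7-fold higher in MC26 (log2 fold change 1.43, standard error 0.13, edgeR-adjusted p 1.09e-05) and 1.54-fold higher in M1B26 (0.63, standard error 0.12, edgeR-adjusted p 0.00176). M1B26 lay below MC26, at a log2 fold change of -0.81 (standard error 0.12, edgeR-adjusted p 0.000571). Its relative PFKFB4, also a HIF target, was not called, with 95% intervals of -0.30 to 0.15 in MC26 and -0.16 to 0.29 in M1B26. PDK1, a kinase that blocks pyruvate dehydrogenase, had intervals of -0.14 to 0.50 and -0.22 to 0.43.

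The mRNAs of both HIF alpha subunits were higher in both lines. EPAS1 (HIF-2 alpha) was at 201, 177 and 202 CPM in the CT libraries, 464, 473 and 504 in MC26 and 475, 467 and 511 in M1B26. All 6 libraries of the transformed lines lay above CT and those of the 2 lines overlapped. EPAS1 rose 2.48-fold in MC26 (log2 fold change 1.31, standard error 0.07, edgeR-adjusted p 7.13e-07) and 2.5-fold in M1B26 (1.32, standard error 0.07, edgeR-adjusted p 4.02e-07), and the difference between the lines was 0.01 (95% interval -0.15 to 0.17). HIF1A (HIF-1 alpha) was at 310, 329 and 298 CPM in the CT libraries, 408, 479 and 490 in MC26 and 402, 380 and 404 in M1B26. It rose by 0.56 in MC26 (standard error 0.08, edgeR-adjusted p 0.000312) and by 0.34 in M1B26 (standard error 0.08, edgeR-adjusted p 0.00433). The share of EPAS1 in both subunits, per kilobase, went from 32.2 ± 2.67% in CT to 44.5 ± 1.83% for MC26 and 48.4 ± 0.851% for M1B26 (n = 3, SD). The log2 ratio of EPAS1 to HIF1A was higher by 0.76 in MC26 and by 0.98 in M1B26 than in CT, with lines that did not overlap (exact permutation p 0.1 each). The subunits are regulated mainly as proteins, which were not measured here.

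**Figure D3:**
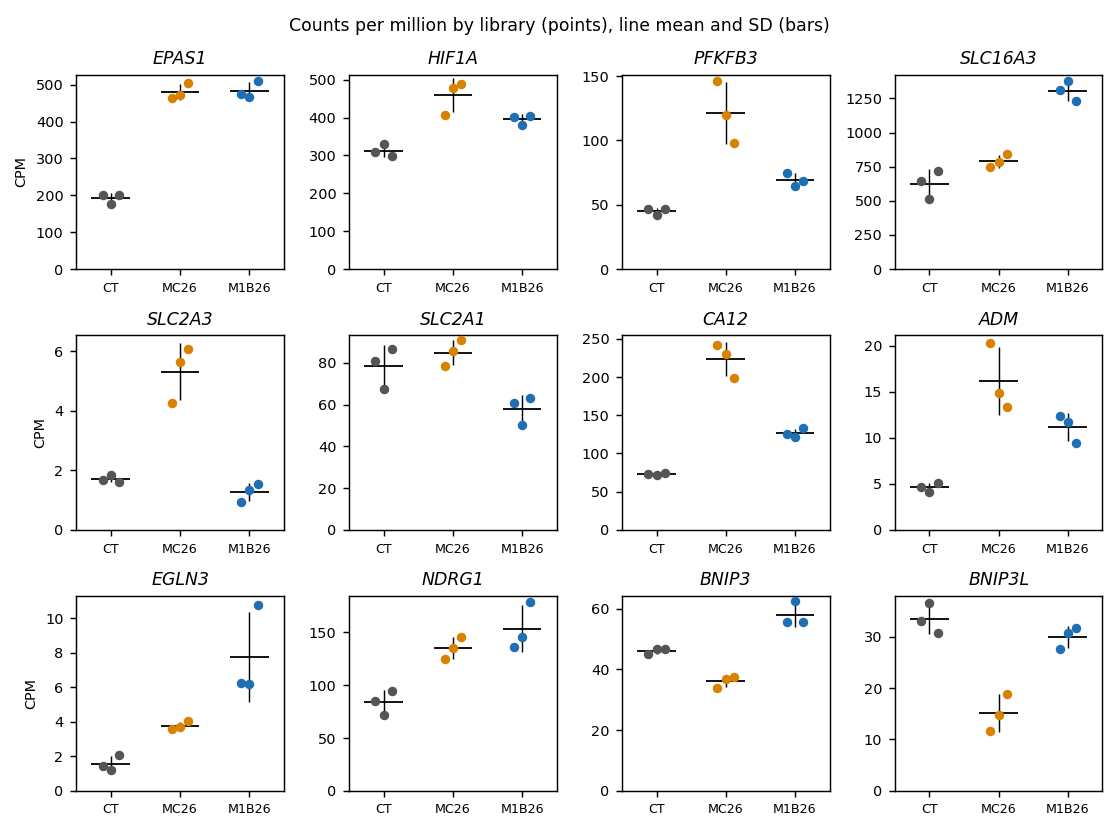
CPM (vertical axis, from 0) of 12 of the genes in each library (points; CT grey, MC26 orange, M1B26 blue), with the mean and SD of each line (black bars). EPAS1 is as high in MC26 as in M1B26, PFKFB3, CA12 and ADM are highest in MC26, and SLC16A3 and EGLN3 are highest in M1B26.

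Of the hydroxylases that mark HIF alpha for destruction, EGLN3 and EGLN1, HIF targets themselves, moved apart. EGLN3 (PHD3), the more inducible one, was at 1.41, 1.22 and 2.10 CPM in the CT libraries, 3.61, 3.69 and 4.05 in MC26 and 6.27, 6.2 and 10.8 in M1B26. The lines did not overlap and rose in the order CT, MC26, M1B26. EGLN3 rose by a log2 fold change of 1.21 in MC26 (standard error 0.25, edgeR-adjusted p 0.00355), by 2.25 in M1B26 (standard error 0.25, edgeR-adjusted p 3.78e-05) and by 1.04 from MC26 to M1B26 (standard error 0.24, edgeR-adjusted p 0.00548). EGLN1 (PHD2), the main oxygen sensor, was at 86.2, 94.8 and 87.4 CPM in the CT libraries, 76.9, 83.7 and 80.8 in MC26 and 68.8, 73.6 and 74.2 in M1B26. It fell by 0.31 on the log2 scale in M1B26 (standard error 0.07, edgeR-adjusted p 0.00276), and its -0.15 in MC26 was not called (adjusted p 0.0917). EGLN3 made up 2.76 ± 0.857% of EGLN3 and EGLN1 per kilobase in CT, 7 ± 0.416% for MC26 and 14.5 ± 3.84% for M1B26 (n = 3, SD). A further hydroxylase of this kind, EGLN2, is not in that sum. It stood at 26.2, 30.7 and 31.8 CPM per kilobase in CT, MC26 and M1B26, above EGLN1 at 20.6, 18.6 and 16.7. EGLN2 was not called against CT in MC26 (0.22, adjusted p 0.119 by edgeR) or in M1B26 (0.27, adjusted p 0.0537 by edgeR).

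**Figure D4:**
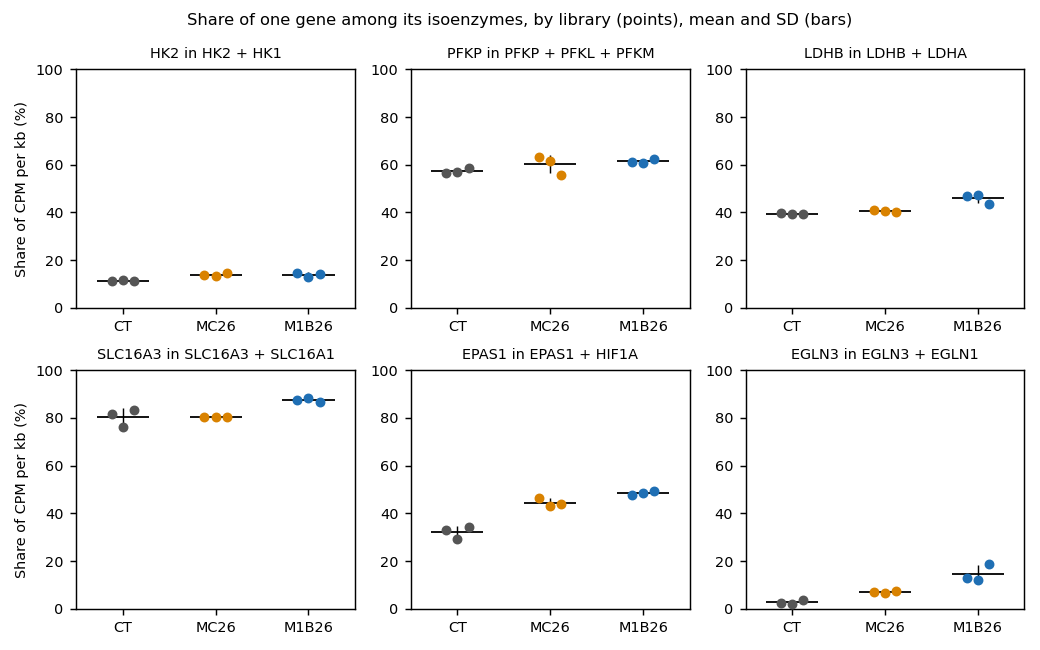
Share (vertical axis, percent of CPM per kilobase) of the gene named first in each title among the genes in that title, in each library (points, CT grey, MC26 orange, M1B26 blue) with the mean and SD of each line (bars). The panel of EGLN3 leaves out EGLN2. The share of EPAS1 lies at 29.2 to 34.2% in CT and at 43.0 to 49.2% in the other lines, and that of PFKP at 56.6 to 58.8% in CT, 55.8 to 63.2% in MC26 and 60.6 to 62.5% in M1B26.

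Ratios within a library do not depend on its scaling. Of 9 log2 ratios of isoenzymes in 3 comparisons, 27 in all, 18 had lines that did not overlap. Lines apart were common over all 15717 genes tested too. By CPM, 3861 genes lay fully higher and 4048 fully lower in MC26 than in CT. The counts were 4715 and 4559 in M1B26 against CT, and 4377 and 4027 in M1B26 against MC26. These are counts of single genes and not of ratios, and no ratios of other gene pairs were computed. Whether the 18 are more than other pairs would give was not tested. A 2-sided exact permutation test of 3 libraries against 3 cannot go below 0.1, so none of the 27 could pass, and the smallest adjusted p was 0.15. The largest differences were 2.59 in EGLN3 over EGLN1 (M1B26 against CT), 2.41 in ENO2 over ENO1 (M1B26 against MC26) and -1.51 in SLC2A3 over SLC2A1 (M1B26 against MC26). The ratio of SLC16A3 to SLC16A1 differed by 0.75 in M1B26 against either line and by 0.00 in MC26 against CT.

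Among the secreted and pH-regulating targets, CA12 and ADM rose most in MC26. CA12, a membrane carbonic anhydrase, was at 73.4, 71.6 and 74.0 CPM in the CT libraries, 242, 230 and 199 in MC26 and 126, 121 and 133 in M1B26. The 3 lines were fully apart, with MC26 highest. CA12 rose 3.06-fold in MC26 (log2 fold change 1.62, standard error 0.08, edgeR-adjusted p 2.91e-07) and 1.73-fold in M1B26 (0.79, standard error 0.08, edgeR-adjusted p 1.64e-05), and M1B26 lay under MC26 by a log2 fold change of -0.82 (standard error 0.08, edgeR-adjusted p 2.69e-05). ADM, which encodes the vasodilator peptide adrenomedullin, was at 4.62, 4.11 and 5.11 CPM in the CT libraries, 20.3, 14.9 and 13.3 in MC26 and 12.4, 11.7 and 9.44 in M1B26. It rose by 1.79 in MC26 (standard error 0.17, edgeR-adjusted p 1.74e-05) and by 1.26 in M1B26 (standard error 0.17, edgeR-adjusted p 0.000132), with all libraries of both lines above CT.

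VEGFA and CA9 varied between libraries of a line. VEGFA, the main angiogenic growth factor, was at 66.9, 61.9 and 65.9 CPM in the CT libraries, 120, 123 and 77.2 in MC26 and 62.0, 61.7 and 64.7 in M1B26. MC26 replicate 3 lay nearer to CT than to the other MC26 libraries. VEGFA rose by 0.72 in MC26 (standard error 0.14, edgeR-adjusted p 0.00248) and had an interval of -0.36 to 0.26 in M1B26. CA9, a carbonic anhydrase widely used as a marker of hypoxia, had few reads: 0.886, 0.699 and 1.85 CPM in the CT libraries, 0.124, 0.235 and 1.01 in MC26 and 1.42, 1.96 and 3.31 in M1B26. The counts behind these were 62, 16 and 152, then 5, 9 and 43, then 63, 83 and 179. CA9 was not called against CT in either line (-1.37 with SE 0.62, and 0.89 with SE 0.53) and was higher in M1B26 than in MC26 by 2.26 (standard error 0.60, edgeR-adjusted p 0.0123).

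The mitophagy receptors BNIP3 and BNIP3L fell in MC26. BNIP3 was at 45.1, 46.7 and 46.7 CPM in the CT libraries, 34.0, 36.8 and 37.4 in MC26 and 55.6, 62.7 and 55.8 in M1B26. The lines were apart, MC26 below and M1B26 above CT. BNIP3 fell by 0.36 on the log2 scale in MC26 (standard error 0.07, edgeR-adjusted p 0.00249) and rose by 0.33 in M1B26 (standard error 0.07, edgeR-adjusted p 0.00253). BNIP3L was at 33.1, 36.6 and 30.7 CPM in the CT libraries, 11.7, 14.8 and 18.9 in MC26 and 27.6, 30.7 and 31.7 in M1B26. It fell by 1.14 in MC26 (standard error 0.15, edgeR-adjusted p 0.000158), while the interval in M1B26 was -0.46 to 0.16, and M1B26 lay above MC26 by 0.99 (standard error 0.15, edgeR-adjusted p 0.000468).

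Of the remaining targets, the stress gene NDRG1 and the clock repressor BHLHE40 rose in both lines. NDRG1 was at 84.9, 72.2 and 94.7 CPM in the CT libraries, 125, 135 and 146 in MC26 and 136, 146 and 179 in M1B26. It rose by 0.69 in MC26 (standard error 0.12, edgeR-adjusted p 0.00113) and by 0.87 in M1B26 (standard error 0.12, edgeR-adjusted p 0.00016). BHLHE40 was at 68.3, 58.5 and 62.2 CPM in the CT libraries, 102, 128 and 99.3 in MC26 and 89.5, 78.3 and 82.3 in M1B26, with log2 fold changes of 0.80 (standard error 0.10, edgeR-adjusted p 0.000167) and 0.40 (standard error 0.10, edgeR-adjusted p 0.00787). For both genes every library of MC26 and M1B26 lay above every CT library. MXI1, a MYC antagonist, fell by 0.42 in MC26 (standard error 0.14, edgeR-adjusted p 0.0343), and the oxidase ERO1A, which helps disulfide bonds form, rose there by 0.26 (standard error 0.09, edgeR-adjusted p 0.0384). P4HA2, a collagen prolyl hydroxylase, was called between the lines, at -0.40 in M1B26 against MC26 (standard error 0.11, edgeR-adjusted p 0.0156). Its relative P4HA1, the histone demethylase KDM3A and ANKRD37 were called in no comparison, with log2 fold changes of -0.24, 0.08 and 0.31 in MC26 and -0.19, 0.00 and 0.09 in M1B26.

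By pattern, 11 genes were called higher in both lines: HK2, SLC16A1, SLC16A3, PFKFB3, CA12, ADM, EGLN3, NDRG1, BHLHE40, HIF1A and EPAS1. That is 11 of 41, beside 11.1% of all genes tested that were higher in both. GPI was called lower in both (11.6% of all genes), and ENO2 and BNIP3 were called in opposite directions (1.99% of all genes). Another 14 were called in no comparison, 9 of them enzymes (PFKL, PFKM, PFKP, ALDOA, TPI1, GAPDH, ENO1, PKM and LDHA). For that pattern the share of all genes was not computed. Both lines were compared with the same CT libraries, so these counts are not independent.

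HIF binds DNA at the letters ACGTG or GCGTG, which were searched on both strands of RefSeq promoters (GRCh38.p14, 250 bases before to 50 after the start). A promoter entry was found for 36 of the 41 genes, and 29 of these (80.6%) held a match, as did 12 of 16 enzymes (75%) and 10 of 13 other targets (76.9%). The share was 48.4% over all 35116 promoters and 63.9% over 10946 promoters of tested genes. A match of such short letters is a description and not a site, and its absence from this window says nothing of the factor. The 250 bases before the start are shown for 5 genes that rose in both lines (PFKFB3, CA12, ADM and BHLHE40, which hold a match, and EGLN3, which holds none), for BNIP3, which moved in opposite directions, and for LDHA, which was called in no comparison. Sequences run from 5′ to 3′ on the gene's strand, and capitals mark the motif, which reads CACGT or CACGC where it lies on the other strand. The palindrome CACGTG matches on both strands.
PFKFB3 (chr10:6202682-6202931, plus strand): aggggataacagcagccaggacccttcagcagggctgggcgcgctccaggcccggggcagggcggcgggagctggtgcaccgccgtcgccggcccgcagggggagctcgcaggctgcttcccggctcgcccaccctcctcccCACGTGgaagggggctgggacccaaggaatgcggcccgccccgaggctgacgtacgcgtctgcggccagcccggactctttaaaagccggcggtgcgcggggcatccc
CA12 (chr15:63381847-63382096, minus strand): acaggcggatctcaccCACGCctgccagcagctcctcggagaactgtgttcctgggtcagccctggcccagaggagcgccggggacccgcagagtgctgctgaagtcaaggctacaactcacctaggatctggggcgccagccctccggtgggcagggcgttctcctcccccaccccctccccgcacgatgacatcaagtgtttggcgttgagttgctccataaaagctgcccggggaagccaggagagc
ADM (chr11:10304823-10305072, plus strand): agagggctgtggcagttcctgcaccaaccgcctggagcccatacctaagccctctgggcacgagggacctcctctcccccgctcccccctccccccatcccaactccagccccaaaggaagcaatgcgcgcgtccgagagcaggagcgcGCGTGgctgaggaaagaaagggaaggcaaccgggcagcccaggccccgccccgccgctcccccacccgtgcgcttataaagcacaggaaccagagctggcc
BHLHE40 (chr3:4979187-4979436, plus strand): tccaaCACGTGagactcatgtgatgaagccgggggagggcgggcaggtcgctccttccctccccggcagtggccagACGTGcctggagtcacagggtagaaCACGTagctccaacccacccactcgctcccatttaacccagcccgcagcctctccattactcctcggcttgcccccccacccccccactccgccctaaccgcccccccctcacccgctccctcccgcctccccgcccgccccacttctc
EGLN3 (chr14:33951075-33951324, minus strand): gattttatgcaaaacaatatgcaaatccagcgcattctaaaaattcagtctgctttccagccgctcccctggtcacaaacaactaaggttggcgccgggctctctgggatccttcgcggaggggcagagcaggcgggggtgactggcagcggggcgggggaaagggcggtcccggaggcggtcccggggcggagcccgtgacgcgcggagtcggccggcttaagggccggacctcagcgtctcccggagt
BNIP3 (chr10:131981924-131982173, minus strand): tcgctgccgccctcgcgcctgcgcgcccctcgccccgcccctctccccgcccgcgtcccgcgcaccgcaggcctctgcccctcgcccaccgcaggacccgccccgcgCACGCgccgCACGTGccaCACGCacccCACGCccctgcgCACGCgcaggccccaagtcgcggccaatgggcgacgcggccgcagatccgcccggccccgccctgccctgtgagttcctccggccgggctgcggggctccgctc
LDHA (chr11:18394313-18394562, plus strand): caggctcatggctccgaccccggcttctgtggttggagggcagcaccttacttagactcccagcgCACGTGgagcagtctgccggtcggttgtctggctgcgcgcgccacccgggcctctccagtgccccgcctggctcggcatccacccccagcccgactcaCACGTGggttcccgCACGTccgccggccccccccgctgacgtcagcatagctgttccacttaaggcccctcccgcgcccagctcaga
BNIP3 held 6 matches in these bases, LDHA 5, BHLHE40 4, PFKFB3 2, CA12 and ADM 1 each and EGLN3 0.

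Other genes of the same pathways gave a wider view. Of 38 further genes of glycolysis and pyruvate use, 27 could be tested, and 2 were higher and 11 lower in MC26, 4 higher and 8 lower in M1B26, and 8 higher and 3 lower in M1B26 against MC26. That is 7.41% higher and 40.7% lower in MC26, beside 18.8% and 19.9% of all genes, and 14.8% and 29.6% in M1B26, beside 25.2% and 23.7%. PDK4, a kinase that blocks pyruvate dehydrogenase, was at 22.4, 23.3 and 21 CPM in the CT libraries, 0.398, 1.23 and 2.52 in MC26 and 1.35, 1.80 and 3.90 in M1B26. It fell by 3.99 on the log2 scale in MC26 (standard error 0.47, edgeR-adjusted p 8.05e-05) and by 3.21 in M1B26 (standard error 0.43, edgeR-adjusted p 0.000139), well away from CT in all 6 libraries. Its relative PDK3 fell by 0.83 and 0.68 (SE 0.10 each, adjusted p 0.000114 and 0.000283 by edgeR), and PDK2 fell by 0.70 in MC26 (adjusted p 0.00628) with 0.24 in M1B26 (adjusted p 0.239). The aldolase ALDOC, on chromosome 17 like SLC16A3 and PDK2, rose by 1.17 in M1B26 (standard error 0.16, edgeR-adjusted p 0.000165) and stood at 0.24 in MC26 (adjusted p 0.273).

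Of 16 partners and regulators of HIF, 15 could be tested, with 2 higher and 1 lower in MC26, 5 higher and 2 lower in M1B26, and 3 higher and 2 lower in M1B26 against MC26. The called share was 20% in MC26 and 46.7% in M1B26, beside 38.7% and 48.9% of all genes. RBX1 and ELOB, parts of the VHL ubiquitin ligase that marks HIF alpha, each rose by 0.59 in M1B26 (SE 0.07 and 0.11, adjusted p 4.96e-05 and 0.00111 by edgeR) and stood at -0.01 and 0.16 in MC26 (adjusted p 0.903 and 0.276). EP300, a HIF coactivator, fell by 0.54 in M1B26 (standard error 0.10, edgeR-adjusted p 0.00115), and CITED2, which competes with HIF for it, fell by 0.75 in MC26 (standard error 0.20, edgeR-adjusted p 0.0139), a call lost without CT replicate 1 (0.0526) or MC26 replicate 2 (0.0552). ARNT, the partner of both alpha subunits, was not called (-0.03 in MC26 and -0.10 in M1B26, adjusted p 0.719 and 0.238).

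Of 39 further HIF targets, 35 could be tested, and 8 were higher and 14 lower in MC26, 13 higher and 10 lower in M1B26, and 9 higher and 6 lower in M1B26 against MC26. The called share was 62.9% in MC26 and 65.7% in M1B26, beside 38.7% and 48.9% of all genes. STC1, the hormone stanniocalcin, rose by 1.18 in MC26 (standard error 0.40, edgeR-adjusted p 0.0368) and by 3.49 in M1B26 (standard error 0.39, edgeR-adjusted p 4.03e-05), the MC26 call being lost without any CT library or MC26 replicate 2 or 3 (0.0605 to 0.146). LOX, which crosslinks collagen, fell by 1.43 in MC26 (standard error 0.29, edgeR-adjusted p 0.00314) and by 1.13 in M1B26 (standard error 0.29, edgeR-adjusted p 0.00779). DDIT4, an inhibitor of mTORC1, fell by 0.54 in MC26 (standard error 0.14, edgeR-adjusted p 0.0132) and rose by 0.65 in M1B26 (standard error 0.14, edgeR-adjusted p 0.00359).

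Of 9 genes of the pentose phosphate branch 8 could be tested, with 1 higher and 2 lower in MC26 and 3 lower in M1B26. The called share was 37.5% in each line, beside 38.7% and 48.9% of all genes. H6PD was lower in both, by -0.38 in MC26 (standard error 0.13, edgeR-adjusted p 0.0404) and -0.45 in M1B26 (standard error 0.13, edgeR-adjusted p 0.0136). The MC26 call of H6PD was lost without any library but MC26 replicate 3 (adjusted p 0.0545 to 0.152 by edgeR), and that in M1B26 without M1B26 replicate 2 (0.0548). The transketolase TKT fell in M1B26 by 0.36 (standard error 0.08, edgeR-adjusted p 0.00362), and RPIA fell in MC26 by 0.38 (standard error 0.08, edgeR-adjusted p 0.00404).

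Within a line, the 41 genes differed little between libraries. The ratio of the highest to the lowest library had a median over the genes of 1.16 in CT, 1.17 in MC26 and 1.11 in M1B26. That ratio exceeded 1.5 for 2 genes in CT (CA9 and EGLN3), for 6 in MC26 (PDK1, CA9, VEGFA, ADM, BNIP3L and MXI1) and for 3 in M1B26 (SLC2A3, CA9 and EGLN3), and CA9 had the widest ratio in each, up to 8.14 in MC26.

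Of the 60 calls over the 3 comparisons, 14 did not hold when 1 library was left out and the fit repeated in edgeR. In MC26 against CT, HK1 was lost without CT replicate 1 (adjusted p 0.0519) or MC26 replicate 2 (0.0831), and GPI without CT replicate 1 (0.0567), MC26 replicate 1 (0.0575) or MC26 replicate 2 (0.0572). SLC16A3 was lost without CT replicate 1 or 2 or MC26 replicate 2 or 3 (adjusted p 0.0551 to 0.0745). MXI1 was lost without CT replicate 1 or 2, MC26 replicate 1 or 2 or M1B26 replicate 2 (0.0507 to 0.117), and ERO1A without CT replicate 1 or 3 or any MC26 library (0.0529 to 0.14). In M1B26 against CT, HK2 was lost without any CT library, MC26 replicate 2 or M1B26 replicate 1 or 3 (0.0595 to 0.14), and GPI without CT replicate 1 or 3, MC26 replicate 2 or any M1B26 library (0.0545 to 0.137).

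In M1B26 against MC26 the losses in edgeR were of PGK1, PGAM1, CA9, ADM, P4HA2, MXI1 and HIF1A. PGK1 was lost without MC26 replicate 1 or 2 or M1B26 replicate 2 (adjusted p 0.0523 to 0.0685), and PGAM1 without any library but CT replicate 2 and MC26 replicate 3 (0.0677 to 0.179). CA9 was lost without MC26 replicate 2 (0.0541) or M1B26 replicate 3 (0.0508), and ADM without MC26 replicate 1 (0.0839) or M1B26 replicate 3 (0.0807). P4HA2 was lost without MC26 replicate 1 or M1B26 replicate 1 or 3 (0.0501 to 0.061), and MXI1 without MC26 replicate 1 or 2 or M1B26 replicate 2 or 3 (0.0586 to 0.0769). HIF1A was lost without CT replicate 1, MC26 replicate 2 or 3 or any M1B26 library (0.0627 to 0.154), and in 11 of 17 alternatives in all. Without MC26 replicate 3 the difference of CA9 was 3.63 in place of 2.26. Calls were gained in 9 cases, among them CA9 in MC26 against CT without MC26 replicate 3 (log2 fold change -2.75, adjusted p 0.00553).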

How the data were processed

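Poly-A RNA was sequenced in paired-end mode from 9 cultures, 3 per line, whose titles in GEO gave line and replicate number. The deposited file holds raw counts per gene symbol. According to the methods of the study, reads were aligned by the authors with STAR (v2.7.3a) on GRCh38, and Salmon (1.1.0) was applied to protein-coding genes. The table holds whole numbers and non-coding genes, so the counting program is not known for it, nor are its strandedness and handling of reads with several alignments. Reads of antisense genes and near-identical copies may therefore be shared.

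Counts were fitted in R 4.3.3 with edgeR 4.0.16 (quasi-likelihood F test, TMM factors of 0.968 to 1.07, filterByExpr with a minimum count of 10, 1 model over the 9 libraries, biological coefficient of variation 10.4%). p-values are 2-sided, Benjamini-Hochberg adjusted over 15717 genes, and measure the spread between cultures of a line. The script was tested on simulated data. Intervals are 95%. Length scaling used the Ensembl canonical transcript (GENCODE), and the promoters came from RefSeq. Figures were drawn with matplotlib 3.10.9.

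All 41 genes are named. Of each pathway list up to 4 are named, those called at a mean of at least 5 CPM with the largest fold changes, besides ARNT and EGLN2. The members and lists were chosen with earlier results of these data known. Results were recomputed with RLE factors or total counts, DESeq2 1.42.0, other filters, the 6 libraries compared, a replicate block, an adjusted p under 0.01 and leaving out each library. The length of all annotated exons, and the same alternatives for named pathway genes that are no members, other than EGLN2, were added after seeing the data. The labels and the methods give BMP2 and IL6 concentrations that differ, so none is stated. Some items that the naming rule selects are not reported here.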

Additional observations from a re-analysis of the deposited data

Results flagged for a closer look

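The direct comparison of M1B26 with MC26 tests whether the changes of both lines against CT differ, and 21 of the 41 genes passed it by edgeR, against 39.5% of all genes tested. Log2 fold changes were negative, that is lower in M1B26, for SLC2A3 (-2.04), CA12 (-0.82), PFKFB3 (-0.81), VEGFA (-0.77), SLC2A1 (-0.55), ADM (-0.53), BHLHE40 (-0.40), P4HA2 (-0.40), HK2 (-0.36), HK1 (-0.36) and HIF1A (-0.22). They were positive for PGAM1 (0.19), PGK1 (0.20), LDHB (0.29), MXI1 (0.46), BNIP3 (0.69), SLC16A3 (0.73), BNIP3L (0.99), EGLN3 (1.04), CA9 (2.26) and ENO2 (2.40). With 3 libraries per line, no single library was tested for standing apart.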

How the results depend on the processing

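Over 17 alternatives and 3 comparisons the 41 genes gave 2091 values, of which 1970 kept their side of the threshold (34 of them, not called, had the opposite sign), 92 lost the call, 29 gained one and 0 turned a called direction. The 19 other named pathway genes, without EGLN2, gave 966 such values, with 32 calls lost, 19 gained and 0 turned. The 189 isoenzyme differences, taken without length scaling or without 1 library, moved by less than 1 SD. Length cancels in such a difference, and leaving out 1 of 3 libraries cannot move it by 1 SD. That outcome was therefore fixed in advance and says nothing of stability. With total counts as the only scaling, which moved the median of all genes by -0.08, -0.09 and -0.02 in the 3 comparisons, the median of the enzymes was 0.00 in MC26 and -0.02 in M1B26 against CT, and that of the other HIF targets 0.17 and -0.01; in M1B26 39.6% of all called genes were then higher, against 51.5% with TMM. At an adjusted p under 0.01, 2 enzymes were called in MC26 against CT, and 13 members and 5 other targets in M1B26 against MC26. Leaving out 1 library gave 2 to 5 called enzymes in MC26 against CT, and 6 to 12 called other targets in M1B26 against MC26. The median of the other targets then ran from 0.15 to 0.29 in MC26 and from 0.02 to 0.16 in M1B26 against CT, and from -0.12 to -0.06 in M1B26 against MC26, and that of the enzymes in M1B26 from 0.01 to 0.14. The cause of these moves beyond fewer libraries or a stricter threshold was not tested. Same-numbered libraries of 2 lines correlated at -0.145 to 0.26 in their deviations from the line means, so the numbers were not taken to pair the cultures; with the number as a replicate block 22, 20 and 20 members were called, against 20, 19 and 21. The shallowest library, CT replicate 2, limits CA9, ANKRD37, EGLN3 and SLC2A3 most, since these had the fewest counts. With the length of all annotated exons, the share of EGLN3 was 1.28, 3.32 and 7.22% in CT, MC26 and M1B26. That of LDHB was then 43.4, 44.5 and 50%, and that of EPAS1 30.5, 42.6 and 46.4%. The shares of EGLN3 and LDHB moved by more than their SD in every line, those of SLC2A3 by less. The order of the lines stayed, so the levels of these shares depend on the length used.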

Other observations

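A few genes of the pathway lists, chosen after their values were seen because their mean lay under 5 CPM, changed by more than most of those named above. SLC2A6, a hexose transporter of lysosomal membranes, was at 0.772, 0.524 and 0.659 CPM in the CT libraries, 0.647, 0.784 and 0.518 in MC26 and 8.81, 7.46 and 8.74 in M1B26. M1B26 stood apart from both other lines, by a log2 fold change of 3.62 against CT (standard error 0.18, edgeR-adjusted p 1.84e-07) and of 3.68 against MC26 (standard error 0.18, edgeR-adjusted p 4.84e-07). SLC2A12, another hexose transporter, was higher in M1B26 by 2.10 against CT (standard error 0.25, edgeR-adjusted p 6.43e-05) and stood at -0.14 in MC26 (adjusted p 0.742). ARNT2, a relative of the HIF partner ARNT, was at 2.32, 1.97 and 2.60 CPM in the CT libraries, 2.91, 3.43 and 3.76 in MC26 and 8.18, 5.99 and 7.28 in M1B26. It rose by 0.53 in MC26 (standard error 0.17, edgeR-adjusted p 0.0265) and by 1.62 in M1B26 (standard error 0.16, edgeR-adjusted p 1.84e-05). The MC26 call of ARNT2 was lost without CT replicate 1 (adjusted p 0.0741 by edgeR), CT replicate 2 (0.0621), MC26 replicate 2 (0.0674) or MC26 replicate 3 (0.0795). HKDC1, a hexokinase-like enzyme, rose by 1.72 in MC26 (standard error 0.39, edgeR-adjusted p 0.00534), where its libraries spread from 0.988 to 3.46 CPM.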
